A study of Drosophila melanogaster with 2 samples.

Results

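Aminoacyl-tRNA synthetases are the enzymes that load each tRNA with its amino acid. Their messages were compared between whole 15-day-old adult male Drosophila melanogaster that overexpressed the microRNA miR-305 (da-Gal4/UAS-miR305, called miR-305) and males with the driver alone (da-Gal4/+, called control). The driver is the daughterless one, active in most tissues. Flies of both groups carried it, and the control flies carried no UAS transgene. Each group was sequenced as 1 mRNA-seq library, so no difference below has a replicate check and no test between the groups exists. No source used here gives the number of flies per library. The members were the rows of the deposited table whose gene name begins with Aats- or has the form of a synthetase symbol ending in RS, and that hold 1 gene name. They were 20 of 15906 rows, all found through the older Aats- names, and together they serve 18 of the 20 amino acids of proteins, all but aspartate and histidine.

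Each synthetase recognises 1 amino acid and the tRNAs that match it, joins them at the cost of ATP, and so sets which amino acid a codon stands for. Class I and class II enzymes have unrelated catalytic folds. Proteins are made both in the cytosol and inside mitochondria. In animals most synthetases therefore come in a pair of nuclear genes, with the mitochondrial enzyme imported after it is made. In animals several cytosolic synthetases also join a multisynthetase complex with the scaffold proteins AIMP1, AIMP2 and AIMP3. RNA of whole flies mixes all tissues, and fewer cells of a type cannot be told apart from less RNA per cell.

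The old names hide the compartment of 5 members. By position and synonym in the RefSeq gene table, Aats-phe, Aats-leu, Aats-ser, Aats-met and Aats-pro are the genes now called PheRS-m, LeuRS-m, SerRS-m, MetRS-m and ProRS-m, whose products act in mitochondria. With Aats-ala-m and Aats-tyr-m they made 7 mitochondrial members, against 13 counted as cytosolic. Compartment was read from the current symbol alone, mitochondrial if it ends in -m and cytosolic if not. GlyRS, LysRS, ThrRS and GlnRS had no partner named -m among the synthetase rows. Whether any of them also serves mitochondria was not considered. The cytosolic enzymes for phenylalanine, leucine, serine and methionine stood in rows with gene numbers as names, which the name rule did not take. In all, 13 further rows with 1 name each belonged to synthetases, and AspRS and HisRS shared rows with other genes (Aats-asp,CR43468 and Aats-his,Bx). The members are called below by their current symbols.

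Values are FPKM (fragment counts scaled by transcript length and by the total of mapped fragments), so levels of different genes are given per length. The log2 ratio divides miR-305 FPKM + 1 by control FPKM + 1 before the logarithm, and the added 1 makes differences of low genes look smaller. Calls past 2-fold or 1.5-fold are made on this FPKM + 1 scale, while a ratio of FPKM is given without the added 1. It was read for rows with a mean FPKM of at least 1, which all 20 members and 11936 of all features passed. The miR-305 library had 14241 features above 0 and the control library had 14389, at a depth that is unknown. The mir-305 row had 546 FPKM with the transgene and was listed at 0 without it. All FPKM values summed to 1176985 for miR-305 and 967511 for control flies, and the 100 most abundant features made up 50.9% of the sum in miR-305 and 44.7% in control. Directions below are those of the deposited values. Once both libraries were scaled to an equal sum, called the same sum below, the median log2 ratio of all features moved to -0.27 from -0.03, and 19 of the 20 members then lay below 0.

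Synthetase messages differed little between the libraries. None of the 20 members was past 2-fold in either direction, where 4.11% of all features were, and none was past 1.5-fold, where 12.0% of all features were. The ratio of miR-305 over control FPKM ran from 0.75 (ProRS-m) to 1.30 (LeuRS-m). A log2 ratio above 0 was found for 16 of 20 members, against 46.4% of all features. At the same sum it was found for 1 of 20, against 18.4% of all features. The median log2 ratio of the members was 0.12, with quartiles of 0.03 and 0.15, against -0.03 for all features, with quartiles of -0.24 and 0.18. With the same sum the members' median was -0.15. Set against the median of all features, the members' median was 0.15 higher as deposited and 0.12 higher at the same sum. Independently of any scaling of a whole library, 16 of 20 members had an FPKM ratio above the median ratio of all features (0.98), among them 12 of 13 cytosolic and 4 of 7 mitochondrial ones. Together the 20 rows summed to 408 FPKM in miR-305 and 384 FPKM in control.

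**Figure D1:**
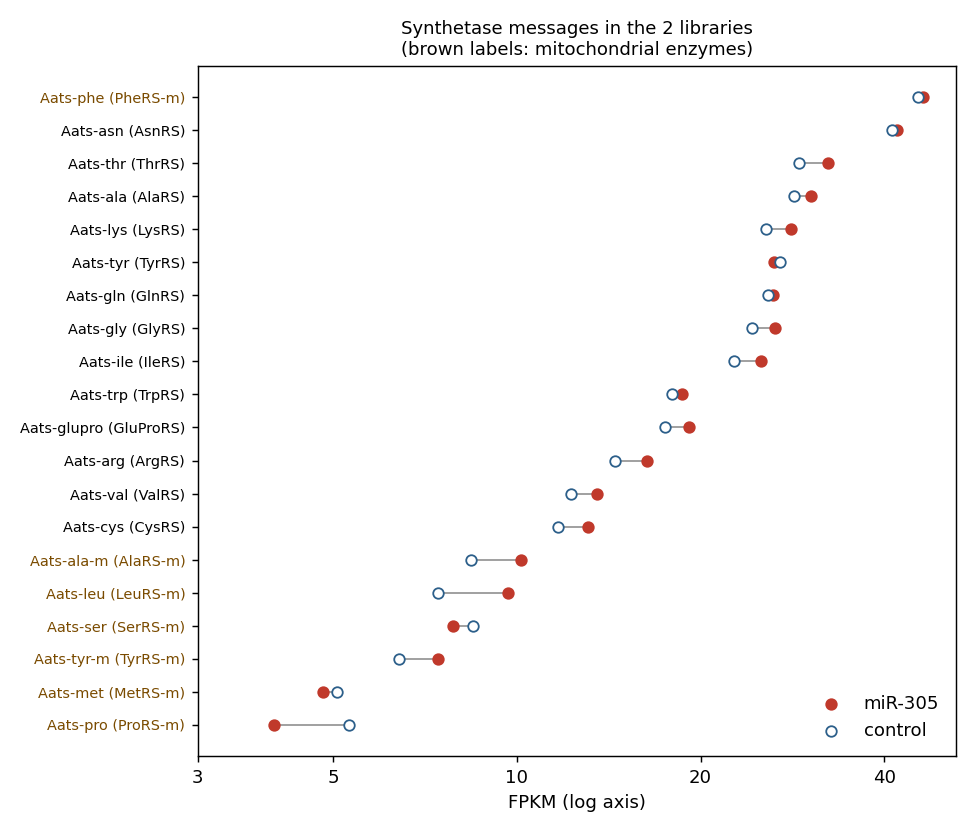
FPKM (log axis) of the 20 synthetase members in the miR-305 library (filled red) and the control library (open blue), ordered by mean level, with 1 library per group and brown labels for mitochondrial enzymes. PheRS-m and AsnRS lead both libraries, and the 6 lowest members are all mitochondrial, with ProRS-m lowest in miR-305 at 3.99 FPKM.

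The order of the levels was nearly the same in both libraries. Across the 20 members, log2(FPKM + 1) in miR-305 and in control correlated with a Pearson r of 0.99 and a Spearman rho of 0.98, where genes are not independent replicates. PheRS-m (2R, 13968308 to 13969902), which loads phenylalanine in mitochondria, was the most abundant member with 46.3 FPKM in miR-305 and 45.5 FPKM in control. AsnRS, for asparagine (2L, 19129469 to 19131954), followed with 41.9 FPKM in miR-305 and 41.2 FPKM in control. These were the highest members in both libraries. ThrRS, for threonine (2L, 12103751 to 12107170), had 32.3 FPKM in miR-305 against 29.0 FPKM in control. AlaRS, for alanine, had 30.4 FPKM in miR-305 against 28.4 FPKM in control, and LysRS, for lysine, had 28.1 FPKM in miR-305 against 25.6 FPKM in control. LysRS stood close to GlyRS, TyrRS, GlnRS and IleRS, which lay between 25.1 and 26.5 FPKM in miR-305 and between 22.7 and 27.0 FPKM in control. Of these 5 cytosolic enzymes IleRS was lowest in both libraries and the other four changed places, so no order among those can be read from 1 library each.

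The 13 cytosolic members kept within a narrow range of ratios. Their median log2 ratio was 0.12, 12 of 13 lay above 0, and the lowest and highest values were -0.03 and 0.16. At the same sum this median was -0.15 and 0 of 13 lay above 0. ArgRS, the arginine enzyme (X, 15841769 to 15844145), had the highest of these ratios with 16.4 FPKM in miR-305 and 14.5 FPKM in control, a ratio of 1.13. For CysRS (2R, 16143147 to 16145906), the cysteine enzyme, the values were 13.1 FPKM in miR-305 and 11.7 FPKM in control. Both were small differences on a single library each. IleRS, which loads isoleucine and also edits misloaded valine, had 25.1 FPKM in miR-305 and 22.7 FPKM in control. ValRS, for valine, was at 13.5 FPKM in miR-305 and 12.3 FPKM in control. Both enzymes for these branched amino acids thus had a ratio near 1.1, with values of 1.11 and 1.10. GluProRS, a fused enzyme that serves both glutamate and proline, had 19.1 FPKM in miR-305 and 17.5 FPKM in control. GlyRS, for glycine, had 26.5 FPKM in miR-305 and 24.2 FPKM in control, and its ratio of 1.09 was that of GluProRS too. TrpRS, for tryptophan, had 18.7 FPKM in miR-305 and 18.0 FPKM in control. GlnRS, for glutamine, had 26.3 FPKM in miR-305 and 25.8 FPKM in control, and its log2 ratio of 0.03 was like that of AsnRS. TyrRS, for tyrosine, was the one cytosolic member below 0, with 26.4 FPKM in miR-305 and 27.0 FPKM in control, and it lay above 0 once the libraries were scaled to a common median.

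The 7 mitochondrial members spread more widely and held both ends of the range. Their median log2 ratio was 0.03 (-0.25 with the same sum), 4 of 7 lay above 0, and the values ran from -0.34 to 0.34. LeuRS-m, for leucine (3L, 4825853 to 4829038), had 9.66 FPKM in miR-305 and 7.43 FPKM in control, a log2 ratio of 0.34. It was the one member still above 0 with the same sum, at 0.085. AlaRS-m (3L, 5146098 to 5149852) had 10.2 FPKM in miR-305 against 8.42 FPKM in control, and TyrRS-m (2R, 24781726 to 24783500) had 7.42 FPKM in miR-305 against 6.41 FPKM in control. These were the highest 3 log2 ratios among all 20 members, at 0.34, 0.24 and 0.18. At the other end, ProRS-m, for proline (3L, 2650161 to 2651850), had 3.99 FPKM in miR-305 and 5.32 FPKM in control, a log2 ratio of -0.34. SerRS-m (3R, 15340667 to 15343218) had 7.87 FPKM in miR-305 and 8.46 FPKM in control. MetRS-m (3R, 14249043 to 14259991) had 4.81 FPKM in miR-305 and 5.08 FPKM in control. PheRS-m was near equal, as given above. Apart from PheRS-m these members are low (at most 10.2 FPKM in either library), and with depth unknown the counting error of such values cannot be given.

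Some members overlap other genes, and the part of those genes in the values was not tested. The deposited locus of 12 members held no other annotated gene, while for 8 members it held a gene on the opposite strand. The libraries were made with a directional kit, but a strand setting for their processing was not given in the sources used here. Of the mitochondrial members only PheRS-m and LeuRS-m stood alone. The locus of ProRS-m overlaps CG1246, that of TyrRS-m CG3594, that of AlaRS-m Gen, that of MetRS-m CG43179, and that of SerRS-m Nagk and Cyfip. Among cytosolic members, CysRS meets sotv, GlnRS meets CG11858 and GluProRS is crossed by the antisense RNA CR46092. The 12 members alone in their locus had a median log2 ratio of 0.12 with 11 of 12 above 0, against 0.08 with 5 of 8 for the others and 46.4% above 0 for all features. Of the 12 alone, 10 were cytosolic and 2 mitochondrial, so overlap and compartment cannot be told apart in this split. The overlapped cytosolic members CysRS, GluProRS and GlnRS all lay above 0, at 0.15, 0.12 and 0.03.

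**Figure D2:**
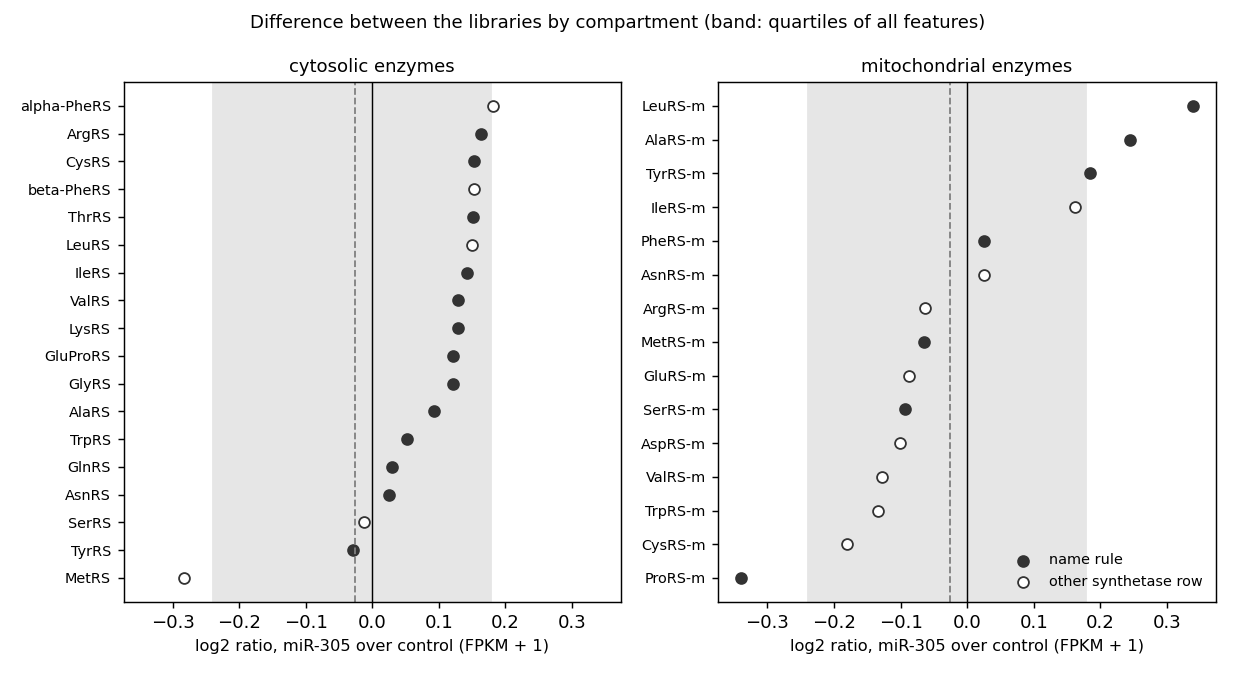
Log2 ratio of miR-305 over control (FPKM + 1) for every synthetase row with 1 gene name, cytosolic enzymes left and mitochondrial enzymes right, filled for the 20 members and open for the 13 other rows. The grey band runs between the quartiles of all features (-0.24 to 0.18), the dashed line their median (-0.03) and the solid line 0. Most cytosolic enzymes gather between 0.09 and 0.18 with MetRS apart at -0.28, and mitochondrial enzymes spread over the whole range.

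The 13 other synthetase rows lowered the median of the family and moved the mitochondrial median below 0. Over all 33 rows the median log2 ratio was 0.05 with 21 above 0, against 0.12 for the 20 members. Over the 13 other rows alone it was -0.06 with 5 above 0. Over all 18 cytosolic rows the median log2 ratio was 0.12 with 15 above 0. Over all 15 mitochondrial rows it was -0.065 with 6 above 0, against 0.03 with 4 of 7 for the mitochondrial members alone. All features had a median of -0.03 with 46.4% above 0, close to the values of the mitochondrial rows. Medians over these wider sets are given as deposited only. Summed, the cytosolic rows had 438 FPKM in miR-305 and 415 FPKM in control, whereas the mitochondrial rows had 185 FPKM in miR-305 and 189 FPKM in control. None of the 33 was past 1.5-fold. MetRS, the cytosolic methionine enzyme that also charges the initiator tRNA (CG15100), had 13.5 FPKM in miR-305 and 16.7 FPKM in control, the lowest log2 ratio among cytosolic rows at -0.28. LeuRS (CG33123) had 15.8 FPKM in miR-305 and 14.2 FPKM in control. The subunits of the cytosolic phenylalanine enzyme had like ratios of 1.14 for alpha-PheRS (23.8 FPKM in miR-305, 20.8 FPKM in control) and 1.12 for beta-PheRS (14.5 FPKM in miR-305, 12.97 FPKM in control). SerRS (CG17259) was the most abundant single-name synthetase row, with 52.1 FPKM in miR-305 and 52.5 FPKM in control. TrpRS-m (CG7441) had 32.9 FPKM in miR-305 and 36.2 FPKM in control, and CysRS-m (CG8257) had 22.5 FPKM in miR-305 and 25.6 FPKM in control. The shared row of AspRS had 49.6 FPKM in miR-305 and 41.7 FPKM in control, and that of HisRS had 51.1 FPKM in miR-305 and 43.2 FPKM in control, which cannot be assigned to the synthetases alone.

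The ratio of the mitochondrial to the cytosolic message within a library does not change when a whole library is rescaled. It could be formed for 15 pairs of rows and 14 amino acids. The mitochondrial message was the more abundant per length in 4 of these pairs in both libraries. These were PheRS-m over alpha-PheRS (1.95 in miR-305, 2.18 in control) and over beta-PheRS (3.19 in miR-305, 3.51 in control), CysRS-m over CysRS (1.72 in miR-305, 2.198 in control) and TrpRS-m over TrpRS (1.76 in miR-305, 2.01 in control). At the other end AsnRS-m stood at 0.12 of AsnRS in both libraries. The ratio was lower in miR-305 than in control for 9 pairs and higher for 6, and the quotient of the 2 ratios ran from 0.69 to 1.18 with a median of 0.91. The lowest quotient was that of ProRS-m over GluProRS (0.21 in miR-305, 0.30 in control). The highest was that of TyrRS-m over TyrRS (0.28 in miR-305, 0.24 in control). MetRS-m over MetRS (0.36 in miR-305, 0.30 in control) and LeuRS-m over LeuRS (0.61 in miR-305, 0.52 in control) were also higher in miR-305, as was AlaRS-m over AlaRS (0.33 in miR-305, 0.30 in control).

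**Figure D3:**
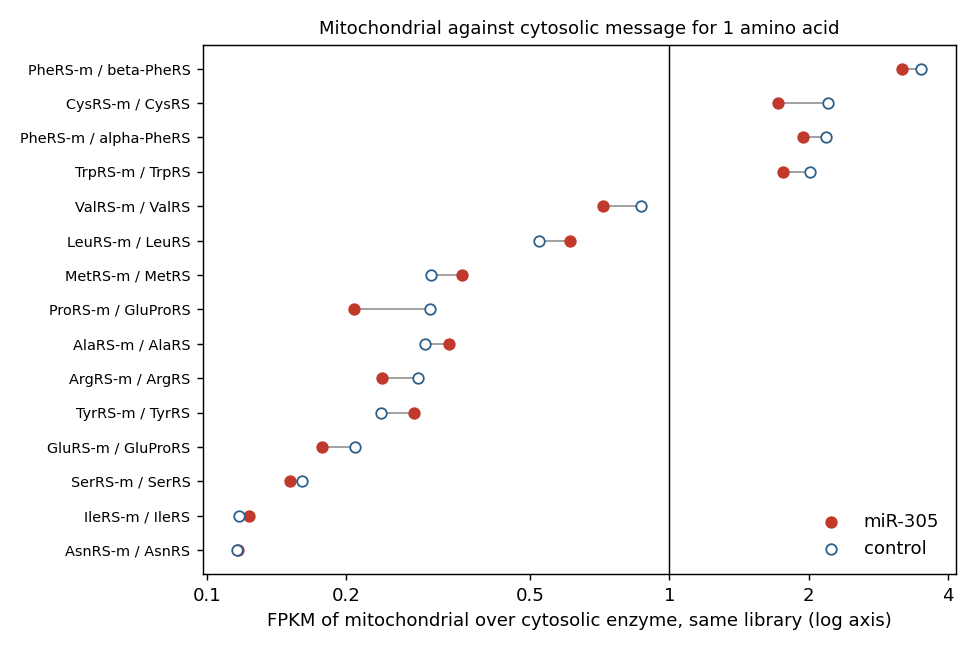
FPKM of the mitochondrial enzyme divided by that of the cytosolic enzyme for the same amino acid (log axis), in the miR-305 library (filled red) and the control library (open blue), for 15 pairs. The vertical line marks equal levels. PheRS-m, CysRS-m and TrpRS-m lie right of it in both libraries, and the largest gap between libraries is that of ProRS-m over GluProRS.

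Members were also described by properties that the name rule did not use. The 10 class I members had a median log2 ratio of 0.14 with 8 above 0, and the 9 class II members had 0.09 with 7 above 0, GluProRS being left out because it holds both folds. At the same sum the medians were -0.13 for class I and -0.18 for class II. Among cytosolic members alone the classes were closer as deposited. There the medians were 0.13 for class I with 6 of 7 above 0, and 0.12 for class II with 5 of 5 above 0. The members' proteins run from 417 residues (SerRS-m) to 1714 residues (GluProRS), counted on the transcript with the longest coding sequence. Across the 20 members the log2 ratio had a Pearson r of 0.43 with coding length (Spearman 0.54) and 0.26 with transcript length (Spearman 0.23). With the length of the 3' untranslated region r was -0.29 (Spearman -0.14), and with mean FPKM it was 0.04 (Spearman -0.10). Coding length also differed by compartment, with medians of 2241 nt for cytosolic and 1392 nt for mitochondrial members. The correlations are descriptions across genes that share 2 libraries, and no p-value is given. MetRS-m has the longest annotated 3' untranslated region (2481 nt) and SerRS-m the next (1129 nt), and most members have a short one, with a median of 131 nt. GlyRS, GlnRS and SerRS-m have a single exon in that transcript. Members lay on 2L, 2R, 3L, 3R and X, with 3, 4, 6, 5 and 2 genes.

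Partners in charging and its control were read as fixed lists. Of the multisynthetase complex, 10 rows could be read, and 8 had a log2 ratio above 0, against 46.4% of all features. None was past 1.5-fold, where 12.0% of all features were. The median was 0.14 (-0.14 with the same sum, with 1 above 0, against 18.4% of all features). ArgRS, GlnRS, GluProRS, IleRS and LysRS of this list are members, and LeuRS and MetRS are among the other synthetase rows. Only the scaffold genes AIMP1, AIMP2 and AIMP3 were not counted above. Each scaffold gene had a higher level per length than any of the 7 enzymes of the complex that could be read, in both libraries. AIMP2 (CG12304) had 45.8 FPKM in miR-305 and 36.2 FPKM in control, a ratio of 1.27 and the highest of the complex. AIMP3 (CG30185) had 45.4 FPKM in miR-305 and 38.8 FPKM in control. AIMP1 (CG8235) was near equal with 37.7 FPKM in miR-305 and 38.3 FPKM in control. The list of relatives and auxiliary factors holds the scaffold genes again, and alpha-PheRS and beta-PheRS from above. It had 6 of 9 rows above 0, against 46.4% of all features. Its median was 0.15, the value of beta-PheRS (-0.11 with the same sum). In it GatC, a subunit of the amidotransferase that makes glutaminyl-tRNA in mitochondria, had 16.1 FPKM in miR-305 and 13.4 FPKM in control. Its partners gatA (11.1 FPKM in miR-305, 11.02 FPKM in control) and GatB (7.35 FPKM in miR-305, 7.48 FPKM in control) were near equal. Slimp, a mitochondrial relative of SerRS, had 4.76 FPKM in miR-305 and 5.31 FPKM in control.

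Genes of the amino acid response were read because in mammals the factor ATF4 raises many synthetase genes when amino acids run short. Of 14 rows 9 had a log2 ratio above 0, against 46.4% of all features, with a median of 0.15. At the same sum the median was -0.13 with 5 above 0, against 18.4% of all features. Past 1.5-fold on the FPKM + 1 scale was 1 gene, where 12.0% of all features were. That gene was trbl, whose mammalian relative Trib3 is an ATF4 target, with 14.0 FPKM in miR-305 and 22.3 FPKM in control (log2 ratio -0.63). The fly ATF4 gene crc had 610 FPKM in miR-305 and 542 FPKM in control. Gcn2, the kinase that senses uncharged tRNA, had 4.87 FPKM in miR-305 and 5.66 FPKM in control. Thor, the 4E-BP gene, had 227 FPKM in miR-305 and 202 FPKM in control. The highest log2 ratio of the list was that of asparagine synthetase (AsnS), with 22.0 FPKM in miR-305 and 14.4 FPKM in control. Its FPKM ratio was 1.53, and with 1 added its log2 ratio of 0.58 was just under the 1.5-fold call. Nmdmc, of mitochondrial folate metabolism, had 26.2 FPKM in miR-305 and 18.6 FPKM in control. The serine pathway genes aay (205 FPKM in miR-305, 158 FPKM in control), CG11899 (98.5 FPKM in miR-305, 77.0 FPKM in control) and Shmt (136 FPKM in miR-305, 103 FPKM in control) lay above 0 too. The first enzyme of that pathway, CG6287, was near equal with 325 FPKM in miR-305 and 324 FPKM in control.

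Factors that make tRNAs or carry them to the ribosome had medians near that of all features. Of 16 rows of tRNA maturation and export 7 lay above 0, against 46.4% of all features, and the median was -0.05 (-0.28 with the same sum). None was past 1.5-fold on the FPKM + 1 scale, where 12.0% of all features were. The tRNA deaminase Adat1 (67.9 FPKM in miR-305, 47.0 FPKM in control) and the tRNA methyltransferase Mt2 (2.34 FPKM in miR-305, 1.26 FPKM in control) had the highest log2 ratios of this list, 0.52 and 0.56. Without the added 1 the FPKM ratio of Mt2, a low row, was 1.85. The binding protein La had 30.0 FPKM in miR-305 and 32.6 FPKM in control, and CG2100, a row of the same list, had 21.4 FPKM in miR-305 and 24.1 FPKM in control. Of 8 elongation factor rows 4 lay above 0, against 46.4% of all features, with a median of -0.01 (-0.29 with the same sum). Ef1alpha48D, which carries charged tRNA to the cytosolic ribosome, had 2687 FPKM in miR-305 and 2785 FPKM in control. The subunits of its exchange factor followed, with Ef1beta at 512 FPKM in miR-305 and 508 FPKM in control and Ef1gamma at 513 FPKM in miR-305 and 548 FPKM in control. EfTuM, the mitochondrial counterpart of Ef1alpha48D, had 67.0 FPKM in miR-305 and 59.8 FPKM in control. The tRNAs themselves and the messages of the mitochondrial genome were not analysed here.

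**Figure D4:**
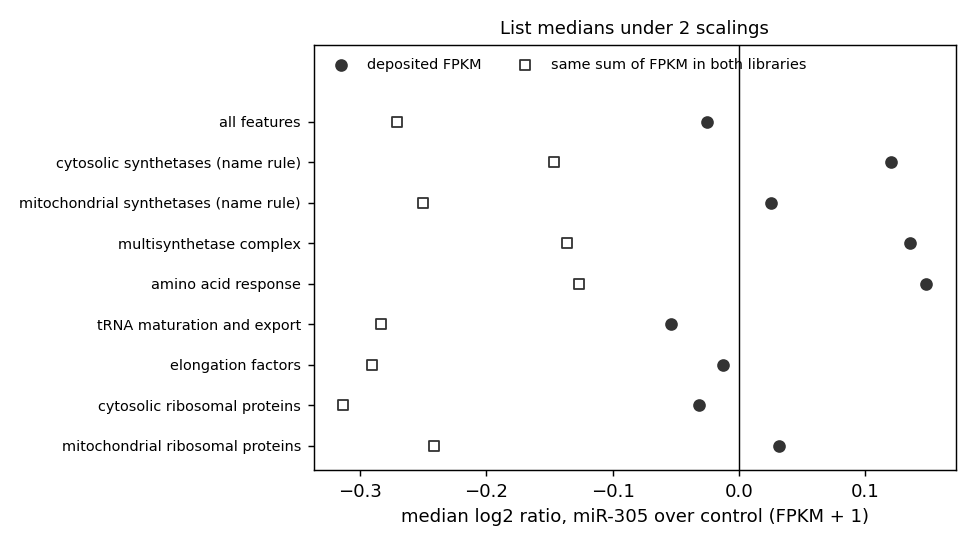
Median log2 ratio of miR-305 over control (FPKM + 1) for synthetases and related lists, with the deposited FPKM (filled circles) and with the same sum of FPKM in both libraries (open squares). Every list moves left with the same sum, all features from -0.03 to -0.27. The cytosolic synthetases lie right of all features, an order that 1 common factor on a library hardly changes.

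Several lists of tissue markers differed more than the synthetases did. All 9 accessory gland markers were higher in miR-305, where 46.4% of all features had a log2 ratio above 0. The accessory gland markers summed to 115806 FPKM in miR-305 and 59059 FPKM in control. Of 12 testis markers 2 were higher, with sums of 1946 FPKM in miR-305 and 2704 FPKM in control. Of 9 midgut markers 8 were higher (4349 FPKM in miR-305, 2400 FPKM in control), and of the 4 fat body markers that passed the minimum level, 3 were higher. Those 3 were the larval serum protein genes Lsp1alpha, Lsp1beta and Lsp2, while apolpp was lower with 235 FPKM in miR-305 and 251 FPKM in control. All 7 fat body markers summed to 830.2 FPKM in miR-305 and 438 FPKM in control, and Fbp1, Lsp1gamma and Yp1 were under 1 FPKM in both libraries. Muscle markers summed to 1267 FPKM in miR-305 and 1304 FPKM in control, with 3 of 8 higher. Eye markers summed to 4519 FPKM in miR-305 and 4415 FPKM in control, with 3 of 10 higher, and neuronal markers to 58.4 FPKM in miR-305 and 67.0 FPKM in control, with 1 of 6 higher. At the same sum 18.4% of all features lay above 0. The counts above 0 were then 9 of 9 accessory gland, 8 of 9 midgut, 3 of 4 fat body and 1 of 12 testis markers. For muscle they were 1 of 8, for eye 3 of 10 and for neurons 0 of 6. None of these markers was listed at 0 in either library, and their part in the synthetase values was not tested.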

How the data were processed

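The deposited table gives FPKM values for 1 miR-305 and 1 control library, per the file headers, and per the labels' protocols both came from NEBNext Ultra Directional libraries read as 51-bp single ends. The build was dm6 and the tools were TopHat2 2.0.13, Cufflinks 2.2.1 and, for read quality, FastQC 0.11.5, per the submitters' processing notes. Any scaling of the libraries to each other was not given in the sources used here. Rows were matched by name or RefSeq synonym and overlapping position (Release 6), and gene structures come from the Ensembl 115 annotation of dm6, with 1-based coordinates. From the FPKM values, log2 ratios with 1 added and a minimum mean FPKM of 1 were computed in Python 3.11.15 with numpy 2.4.6, pandas 2.3.3 and matplotlib 3.10.9, and the ratio and call steps were tested on simulated data. Members and lists were chosen with earlier results of these data known. Every member was named, and from the other lists those past 1.5-fold, the most abundant and others picked after their values were seen. The fixed list of the multisynthetase complex was read by current symbols, since Aats-leu and Aats-met name mitochondrial genes. Promoter motifs, sequences and microRNA sites were not analysed here.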

Additional observations from a re-analysis of the deposited data

How the results depend on the processing

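With 1 library per group, counts past 2-fold and past 1.5-fold were 0 under all 11 alternatives that were tried. Several could not give another count, since they kept the members' values, only took rows away or, with a pseudocount of 5, shrank the ratios. The direction of the 3 medians (members, cytosolic, mitochondrial) was kept by pseudocounts of 0.1 and 5, no filter and a minimum of 10 FPKM. A pseudocount cannot change the sign of a ratio, and no filter leaves the rows as they are. At 10 FPKM the mitochondrial median is PheRS-m alone, the row that gave it before. A common median and a common upper quartile, factors of 1.04 and 1.01 on miR-305, kept the direction too and can only raise medians. At a common median 17 members lay above 0, with 13 of 13 cytosolic ones, so TyrRS changed sides. The scaling decides the direction. With the same sum of FPKM, 1 of 20 members lay above 0, and the medians were -0.15 for the members, -0.15 for the cytosolic and -0.25 for the mitochondrial ones. With the 100 most abundant features left out of that sum, a choice made after seeing the data, these medians were 0.015, 0.016 and -0.083, with 11 members above 0. Over all 33 synthetase rows with 1 name the median was 0.05, with 21 above 0, against 0.12 for the 20 members. The mitochondrial median was -0.065 over all 15 mitochondrial rows and 0.18 over the 2 members alone in their locus. Both medians thus depend on which rows are read, which the fewer or added rows themselves show. No paired analysis was possible because each group had 1 library. Promoter motifs were not run.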

Other observations

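The ribosome offers a set of genes for the other side of translation, chosen by row name after the table was seen. The 83 cytosolic ribosomal protein rows had a median log2 ratio of -0.03, with 31 above 0 and quartiles of -0.11 and 0.07, and they summed to 151476 FPKM in miR-305 and 152144 FPKM in control. The 70 mitochondrial ribosomal protein rows had a median of 0.03, with 41 above 0 and sums of 2692 FPKM in miR-305 and 2655 FPKM in control. Of all features 46.4% lay above 0. With the same sum of FPKM these medians were -0.31 and -0.24. The cytosolic synthetase members (0.12, and -0.15 with the same sum) thus had a higher median than the cytosolic ribosomal proteins. The mitochondrial synthetase members (0.03 and -0.25) and the mitochondrial ribosomal proteins had like medians. Over all 15 mitochondrial synthetase rows, however, the deposited median was -0.065. The same sum multiplies a whole library by 1 factor, which moves every list by nearly the same amount, so it is no second check of this order. No test stands behind this order.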
